A study of Mus musculus with 12 samples.

Results

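The genes described here are 39 members of the mouse pluripotency network, out of 21728 protein-coding genes on chromosomes 1 to 19 and X. They were taken as a list of named genes. Each was followed in all 6 tables through 2 quantities. The first was the interaction anchor strength of its promoter window, which is the number of read-pair ends in anchors that overlap its transcription start and the 10 kb on each side. The second was the number of read pairs from that window to anchors 20 kb to 1 Mb away on the same chromosome. These pairs are also counted in the first quantity. An anchor is a stretch of restriction fragments in which reads pile up.

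Hi-C, FGFR1 HiChIP and CTCF HiChIP were done in ESC and NCC. The ESC are E14Tg2A embryonic stem cells on gelatin in medium with 100 U/mL of LIF, a cytokine that keeps them undifferentiated. The NCC, named neuronal committed cells by the study, are the same line after 48 h without LIF and with 1 µM retinoic acid, so that loss of LIF and gain of retinoic acid cannot be told apart. Hi-C joins and sequences DNA ends that lie close together in the fixed nucleus, and HiChIP adds a pull-down with an antibody, here against FGFR1 or against the insulator protein CTCF. The 12 samples form 6 groups of 2 biological replicates, and each table holds both replicates merged. Each cell type and assay is therefore a single pooled library, a spread between replicates could not be given, and each test on read pairs compares pooled libraries and not the conditions. The Hi-C tables held 20745652 (ESC) and 21228099 (NCC) read pairs, those of FGFR1 HiChIP 2662606 and 3203872, and those of CTCF HiChIP 1218098 and 1056437. No expression is measured in these tables, so the cell labels could not be set against marker levels. Inter-chromosomal pairs took 10.1% of the Hi-C table of ESC and 11.6% of that of NCC.

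In ESC, a circuit of transcription factors keeps the cells able to form all tissues. LIF acts through its receptor subunits Lifr and Il6st on Stat3, BMP induces the Id genes, and factors such as Esrrb, Klf2, Klf5, Tbx3, Tfcp2l1, Prdm14 and Nr5a2 hold the naive state together with Pou5f1, Sox2 and Nanog. The circuit is dismantled when cells leave the naive state, and retinoic acid speeds that exit.

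In ESC the members lay in strong windows. Their Hi-C window strength ran from 240 ends at Zfp42, a classical ESC marker also called Rex1, to 2774 ends at Lefty1, an inhibitor of Nodal signalling, with a median of 1212 against 653 for all protein-coding genes. The median member stood at the 78.0 percentile of all genes in ESC and at the 64.5 percentile in NCC, and 35 of 39 were above the middle of all genes in ESC and 31 in NCC. All 39 windows held at least 1 Hi-C anchor in both cell types, with a median of 3 anchors, so every member passed the minimum of 20 read pairs.

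Hi-C window strength of the network was lower in NCC for most members. After scaling to the table totals, 32 of 39 had a log2 ratio of NCC over ESC below 0 and 7 above it, with a median of -0.30 against -0.04 for all 20290 genes tested, of which 53.5% were below 0. The ratio was lowest at Rif1, Dppa4, Fbxo15 and Dppa2, and highest at Id1, Esrrb, Jarid2 and Lefty2. With a 1.5-fold change as the call, 11 members were lower and 0 higher. Of all genes tested, 15.5% were lower and 12.8% higher by that call. The exact two-sided binomial test on read pairs, with Benjamini-Hochberg adjustment over all genes tested, called 26 members lower and 2 higher, next to 36.5% and 31.6% of all genes. Against the 500 other genes nearest in ESC Hi-C window strength, called like genes here, 10 of 39 members lay above the median of their like genes, the median member lay at the 30th percentile, 5 lay under the 5th percentile (Rif1, Dppa4, Fbxo15, Myc and Klf5) and 0 over the 95th.

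**Figure D1:**
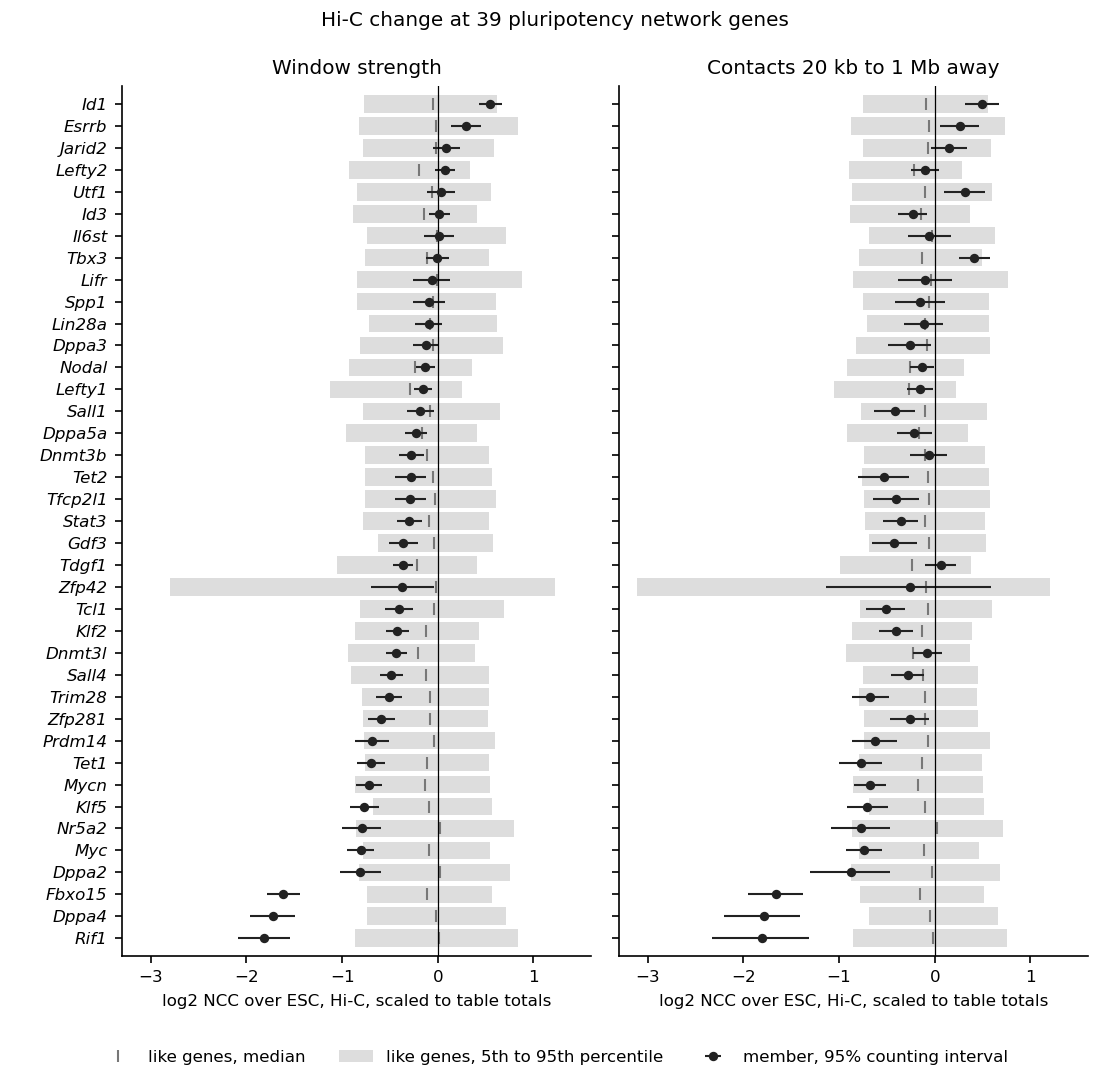
Log2 ratio of NCC over ESC for the Hi-C window strength (left) and the Hi-C read pairs 20 kb to 1 Mb away (right) of the 39 members, ordered by the left panel. Points are members with their 95% counting interval, grey bars span the 5th to 95th percentile of each member's 500 like genes and ticks mark their median. Rif1, Dppa4 and Fbxo15 lie far to the left of their bars in both panels.

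The 3 lowest members stood apart from the other 36. Rif1, which controls replication timing and was found in screens for ESC self-renewal, had 577 ends in ESC and 167 in NCC (log2 ratio -1.82, 95% counting interval -2.09 to -1.55). Dppa4, an ESC and germline marker that binds chromatin with Dppa2, had 791 and 244 ends (-1.73). Fbxo15, an F-box gene once used as the reporter of reprogramming, had 1453 and 485 ends (-1.62, interval -1.79 to -1.44). In all 3 windows the anchors themselves were shorter in NCC. Covered length is the full length of all anchors that overlap the window, including parts outside it, and anchors are called separately in each library. It was 18574 bp in ESC and 8174 bp in NCC at Rif1, and 19053 and 7281 bp at Dppa4. At Fbxo15 it was 27077 and 11192 bp. The part of this in the result was not tested beyond the values per covered kb given below. For Fbxo15 the canonical start lies 17334 bp from the 5′ end used here, and the window at that start had 753 ends in ESC and 464 in NCC (log2 ratio -0.73).

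The next members were also lower by more than 1.5-fold. Dppa2, the partner of Dppa4, had 625 ends in ESC and 365 in NCC (log2 ratio -0.81, interval -1.03 to -0.59). Myc, a growth regulator that LIF and Stat3 induce in ESC, had 1384 and 811 ends (-0.80), and its relative Mycn had 1475 and 917 ends (-0.72). Both Myc genes were therefore among the 11. Nr5a2, an orphan nuclear receptor that binds the Pou5f1 promoter, had 672 ends in ESC and 396 in NCC (-0.80) over almost the same covered length, 10689 and 10695 bp. Klf5 (-0.77), Tet1, which oxidises methylated cytosine (-0.70, but -0.25 with 1241 and 1065 ends at its canonical start 9878 bp away, short of the call), Prdm14, a repressor of FGF signalling and of DNA methylation genes (-0.69), and Zfp281, a zinc finger factor of the exit from naive pluripotency (-0.59), complete the list. Except at Nr5a2, covered length was lower in NCC at the genes listed here, for example 15969 and 11047 bp at Myc and 26178 and 17788 bp at Klf5. Its part was not tested beyond the values per covered kb given below.

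Few members were higher. Id1, a BMP target that blocks differentiation factors, had 1212 ends in ESC and 1813 in NCC (log2 ratio 0.55, interval 0.43 to 0.67), with a covered length of 8829 and 13851 bp. Esrrb, a nuclear receptor of the naive circuit, had 723 and 905 ends (0.29, interval 0.13 to 0.45) at like covered length, 13803 and 14160 bp, and these were the 2 members that the binomial test called higher. At the canonical start of Esrrb, 60527 bp away, the ratio was 0.14 (interval -0.01 to 0.29). Jarid2, a partner of Polycomb repressive complex 2, had 910 and 991 ends (0.09, interval -0.05 to 0.23), and Lefty2 had 2005 and 2161 (0.07, interval -0.03 to 0.18), neither beyond its counting interval. The 24 members not named in these 3 paragraphs had ratios between -0.51 at Trim28 and 0.04 at Utf1.

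Window strength was then separated into the length covered by anchors and the number of ends per covered kb. Over the 39 members the log2 ratio of strength and that of covered length had a Pearson r of 0.87, and over the 19592 protein-coding genes with anchors in both it was 0.91. These are correlations across genes that share both libraries, and genes are not independent replicates. Covered length itself was not lower as a rule, since it was lower at 20 of the 39 members and its median log2 ratio was -0.05. Ends per covered kb were lower in NCC at 37 of 39 members, with a median log2 ratio of -0.23, next to 59.8% of all genes and a median of -0.05. By this measure, which was added after seeing the data, 14 of 39 members lay under the 5th percentile of their like genes and 4 were lower by more than 1.5-fold, against 2.86% of all genes.

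**Figure D2:**
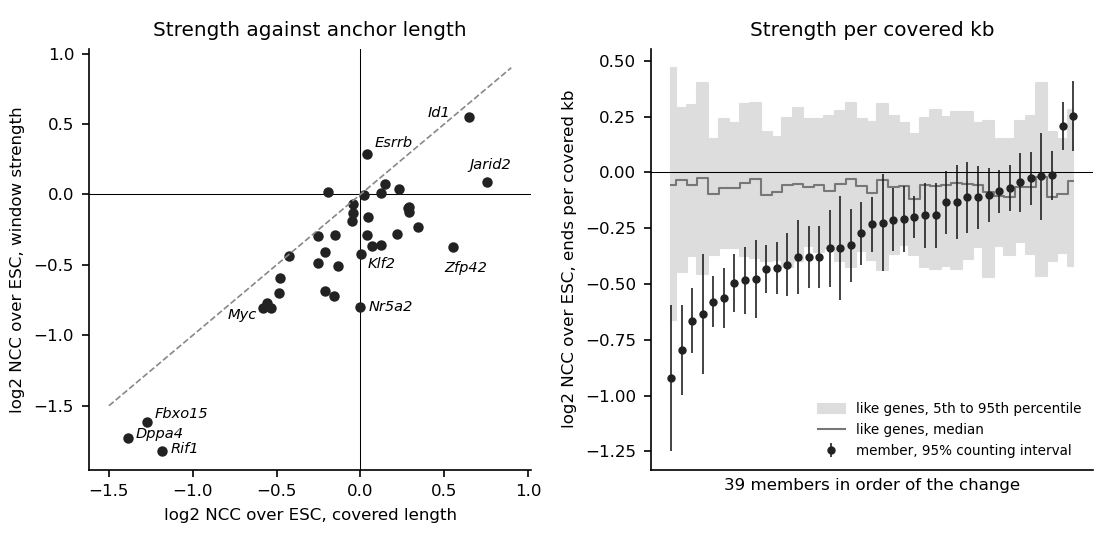
Left, the log2 ratio of NCC over ESC of Hi-C window strength against that of covered length for the 39 members, with a dashed line where both are equal. Right, the log2 ratio of Hi-C ends per covered kb with 95% counting intervals, members in order, against the 5th to 95th percentile (grey) and median (line) of like genes. Most members lie below the dashed line, and all but Id3 and Esrrb lie below 0 on the right.

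The order of members changed with this measure. Zfp42 was lowest, with 50.8 ends per covered kb in ESC and 27.5 in NCC (log2 ratio -0.92), and this window is thin, with 240 and 190 ends. Nr5a2 had 62.9 and 37.0 (-0.80), Jarid2 119.6 and 77.3 (-0.66), and Rif1 31.1 and 20.4 (-0.63). Rif1 was thus lower in both components, while Dppa4 had 41.5 and 33.5 ends per covered kb (-0.34), above the 5th percentile of its like genes. Of the other members under that percentile by window strength, Fbxo15 stayed under it per covered kb (4.8 percentile). Myc (11.8) and Klf5 (19.4) did not. Dppa5a (-0.58), Mycn (-0.56) and Dnmt3b (-0.50), the de novo DNA methyltransferase of early development, followed. Covered length was larger in NCC at Zfp42 (4720 and 6910 bp), Jarid2 (7610 and 12828 bp), Dppa5a (17052 and 21678 bp) and Dnmt3b (10468 and 12192 bp). It was smaller at Mycn (15567 and 13979 bp). At Jarid2 the ends themselves were 910 in ESC and 991 in NCC. The part of a larger covered length in these ratios was not tested. Esrrb was the highest at 0.25, Id3 followed at 0.21, and Id1 was at -0.10, and the Id1 window held 3 anchors in ESC and 5 in NCC. Among the 26 members whose covered length differed by less than 25% of the shorter one, 21 had a lower window strength in NCC and the median was -0.23, against -0.05 for the 10394 such genes.

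By role, most factors of the naive state and most chromatin genes lay below 0, and the LIF and BMP genes lay on both sides of it. Of 11 transcription factors of the naive state, 10 were below 0 (median log2 ratio -0.42), 4 of them past 1.5-fold, where all genes had 53.5% below 0 and 15.5% lower past 1.5-fold. Esrrb was the exception and Tbx3 lay at -0.01, with 1415 and 1442 ends. Of the 7 chromatin and DNA methylation genes, 6 were below 0 (median -0.44), and Jarid2 was the exception. Of 9 ESC and germline marker genes, 8 were below 0 (median -0.23). The 5 genes of the Nodal pathway lay between -0.37 and 0.07 (median -0.16), with 0 past 1.5-fold and 4 called lower by the binomial test, next to 36.5% of all genes. Nodal itself had 2426 and 2268 ends, Lefty1 2774 and 2547, and the co-receptor Tdgf1 2171 and 1724 (-0.37). Of the 5 genes of the LIF and BMP pathways, 2 were below 0 and the median was 0.01: Stat3 had 1318 and 1097 ends (-0.30) and Il6st 785 and 810 (0.01). Lifr had 564 and 552 ends (-0.06) at its 5′ end, but 1431 and 745 (-0.97) at its canonical start 38945 bp away.

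Other lists of genes were taken the same way. The 4 core factors Pou5f1, Sox2, Nanog and Klf4 were all below 0, with a median of -0.36 and 0 past 1.5-fold. The 12 other network genes were all below 0 too, with a median of -0.33 and 3 past 1.5-fold, lowest at Tfe3 with 657 ends in ESC and 212 in NCC. The 8 genes of the formative and primed state, which follows the naive one, were also all below 0, with a median of -0.42 and 3 past 1.5-fold (Fgf5, Otx2 and Zic2). Of the 12 retinoic acid and neural genes, 7 were above 0 and 4 were higher by more than 1.5-fold: Dhrs3, Cyp26a1, Crabp2 and Stra6, all of which act in retinoid metabolism, transport or uptake. Rarb, a target of retinoic acid, was listed with 183 ends in ESC and at 0 in NCC, and the neural genes Sox1 and Nes were also lower past 1.5-fold. Of 8 endoderm and mesoderm genes, 5 were below 0 and 2, Mixl1 and Gata4, were higher past 1.5-fold. The difference between the member lists and these lists was not tested.

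**Figure D3:**
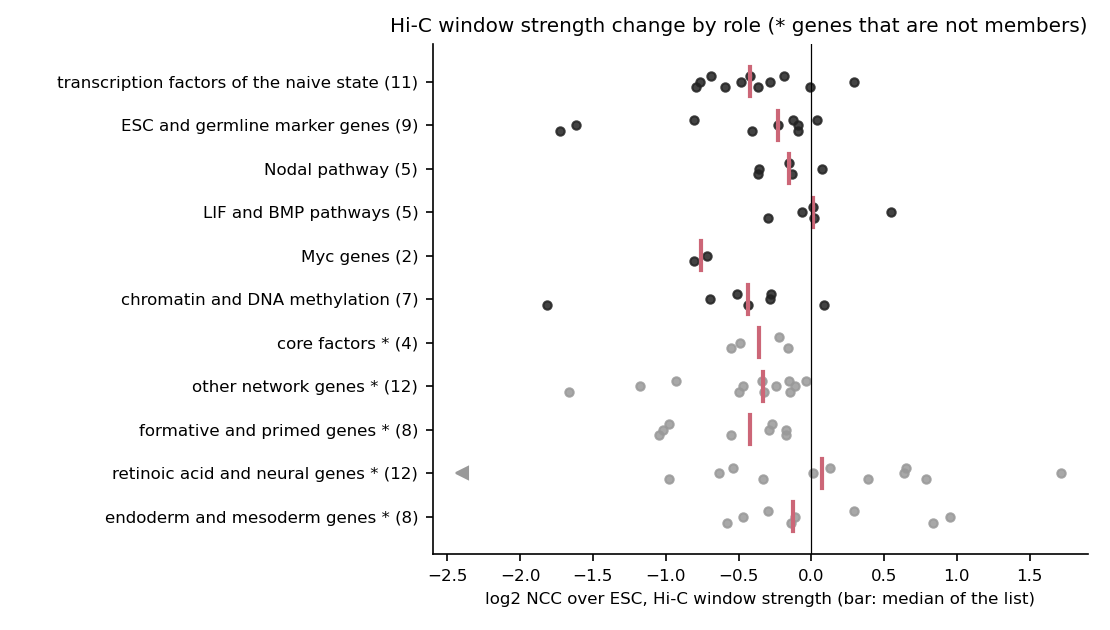
Log2 ratio of NCC over ESC of Hi-C window strength for the members by role (dark) and for genes of 5 other lists (grey, starred), with the number of genes in brackets and a bar at the median of each list. The arrow at the left edge is Rarb, which has no anchor in NCC. The lists of naive, chromatin, core, other network and formative genes lie mostly left of 0.

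Contacts over a distance were also lower at most members, but they are part of window strength. They made up 44.6% of the Hi-C read pairs of member windows in ESC, so a like result was partly built in. Read pairs from the window to anchors 20 kb to 1 Mb away were lower in NCC at 33 of 39 members. At 6 they were higher. The median log2 ratio was -0.26 against -0.08 for 19771 genes tested, of which 57.0% were below 0. With the 1.5-fold call, 11 members were lower and 0 higher, next to 15.8% and 10.5% of all genes. The binomial test called 24 lower and 4 higher, next to 32.7% and 21.8%. The lowest were again Rif1 with 151 read pairs in ESC and 44 in NCC (-1.80, interval -2.33 to -1.32), Dppa4 with 241 and 71 (-1.79), Fbxo15 with 424 and 137 (-1.66) and Dppa2 (-0.88, interval -1.31 to -0.46). The highest were Id1 with 454 and 653 (0.49, interval 0.32 to 0.67), Tbx3 with 540 and 737 (0.42, interval 0.25 to 0.58), Utf1, an ESC chromatin factor, with 314 and 399 (0.31, interval 0.10 to 0.53) and Esrrb with 358 and 439 (0.26, interval 0.06 to 0.47). Esrrb was at -0.06 at its canonical start, with 421 and 414, and at -0.03 with anchor midpoints, so its direction turned and its call was lost. Tbx3 and Utf1 thus had more distal contacts in NCC at a window strength that did not move beyond counting error.

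Ratios were lowest close to the gene. Summed over the 39 windows, read pairs with both ends inside the window had a log2 ratio of -0.46, those reaching 20 to 200 kb -0.31 (13015 pairs in ESC and 10737 in NCC), those reaching 200 kb to 1 Mb -0.13, those further along the chromosome -0.16 and inter-chromosomal ones -0.18. Summed over all protein-coding genes, the same classes were at -0.11, -0.06, -0.09, 0.07 and 0.17. Inter-chromosomal pairs of the members were therefore lower in NCC, 5140 and 4652, while those of all genes were higher.

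The promoters shown are those of members at both ends of the distal change. RefSeq promoter sequences (GRCm38.p6) matched 24 of the 39 members, and those with an entry within 1 kb of the start used here are given for the lowest, Nr5a2 and Mycn, and the highest, Esrrb and Utf1. Each run has 250 bases before and 50 after the start, 5′ to 3′ along the gene. Capitals mark GATC, the site at which all anchors of these libraries start and end, and the GC box GGGCGG on either strand (CCGCCC on the other), counted without overlap.
Nr5a2, chr1:136960399-136960698, minus strand: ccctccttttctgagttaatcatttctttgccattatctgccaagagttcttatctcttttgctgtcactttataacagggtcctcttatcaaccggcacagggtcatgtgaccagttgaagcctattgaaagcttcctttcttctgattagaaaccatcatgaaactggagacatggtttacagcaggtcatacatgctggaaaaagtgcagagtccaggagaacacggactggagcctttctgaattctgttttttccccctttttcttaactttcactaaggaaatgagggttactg
Mycn, chr12:12941787-12942086, minus strand: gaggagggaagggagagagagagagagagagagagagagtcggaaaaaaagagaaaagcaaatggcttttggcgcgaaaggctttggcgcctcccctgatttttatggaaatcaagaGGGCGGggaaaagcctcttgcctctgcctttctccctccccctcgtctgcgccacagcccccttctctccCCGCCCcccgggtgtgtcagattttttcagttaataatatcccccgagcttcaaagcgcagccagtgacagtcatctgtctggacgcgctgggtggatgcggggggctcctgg
Esrrb, chr12:86360867-86361166, plus strand: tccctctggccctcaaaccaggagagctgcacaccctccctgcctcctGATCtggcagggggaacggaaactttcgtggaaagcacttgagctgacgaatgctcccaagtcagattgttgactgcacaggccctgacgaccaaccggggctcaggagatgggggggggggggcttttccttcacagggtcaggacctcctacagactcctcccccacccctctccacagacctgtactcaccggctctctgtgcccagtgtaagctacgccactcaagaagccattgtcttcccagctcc
Utf1, chr7:139943606-139943905, plus strand: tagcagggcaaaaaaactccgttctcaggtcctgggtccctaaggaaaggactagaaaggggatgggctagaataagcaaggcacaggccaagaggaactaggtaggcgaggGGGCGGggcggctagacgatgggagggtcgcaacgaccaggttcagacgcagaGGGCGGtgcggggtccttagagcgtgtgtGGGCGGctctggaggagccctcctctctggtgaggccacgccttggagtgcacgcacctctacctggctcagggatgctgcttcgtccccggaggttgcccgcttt
The Nr5a2 promoter holds 0 GATC sites and 0 GC boxes at 42.0% GC, Mycn has 2 GC boxes, Esrrb has 1 GATC site and Utf1 has 3 GC boxes at 62.0% GC. Of 32851 RefSeq promoters of this length, 48.0% hold a GATC site and 35.7% a GC box, and of the 33 promoters of members 10 hold a GATC site and 22 a GC box. The motifs thus differ within the lower pair as well as between the pairs.

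Contacts were then placed by distance, in bins of 20 kb from 20 kb to 1 Mb on both sides of the start. Distances are given along the chromosome, positive toward higher coordinates. The covered length of a bin is the full length of the anchors with their midpoint in it. Of 770 member bins with at least 10 read pairs over both Hi-C libraries, 49 bins of 25 genes were lower in NCC and 14 bins of 8 genes were higher, by the exact binomial test with Benjamini-Hochberg adjustment over the 309771 such bins of all genes. These are 6.36% and 1.82% of the member bins, next to 3.4% and 2.75% of all bins. Of the 49 lower bins, 41 lay within 120 kb of the start. Covered length was lower in NCC in 39 of the 49, and its part in the calls was not tested. Of the 403 member bins with a covered length within 25% of the shorter one, 17 were lower (4.22%) and 3 higher (0.744%). The share of all bins under this filter was not taken, and without the filter it was 3.4% and 2.75%.

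Myc lost contacts on its 3′ side. The 5 bins from 20 to 120 kb held 242 read pairs in ESC and 87 in NCC, and 4 of them were lower, while their covered length was 50346 and 53381 bp. The bin from 100 to 120 kb had 68 and 17 (log2 ratio -2.00), with a covered length of 9053 and 13806 bp. The stretch as a whole was thus not less covered in NCC. The promoter window, from which all these pairs are counted, had 4 anchors of 15969 bp in ESC and 2 of 11047 bp in NCC. The part of this in the lower bins was not tested.

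Mycn, which lies on the minus strand, had 5 lower bins on both sides. At -160 to -140 kb, downstream of the gene, 90 read pairs in ESC stood against 30 in NCC (log2 ratio -1.60, interval -2.27 to -1.01) with 12753 and 15089 bp covered. At -40 to -20 kb there were 94 and 41 (-1.22), and at 40 to 60 kb 72 and 32 (-1.19). The farthest, at -240 to -220 kb, had 15 and 1 at the same covered length, 10697 bp in both.

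Klf5 lost contacts on 1 side only by this call. At 20 to 60 kb, downstream, 136 read pairs in ESC stood against 37 in NCC, with 20134 and 16383 bp covered, and both bins were lower (log2 ratio -1.72 and -2.09). On the other side the nearest bin held 36 and 39 pairs, and no bin there was called.

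**Figure D4:**
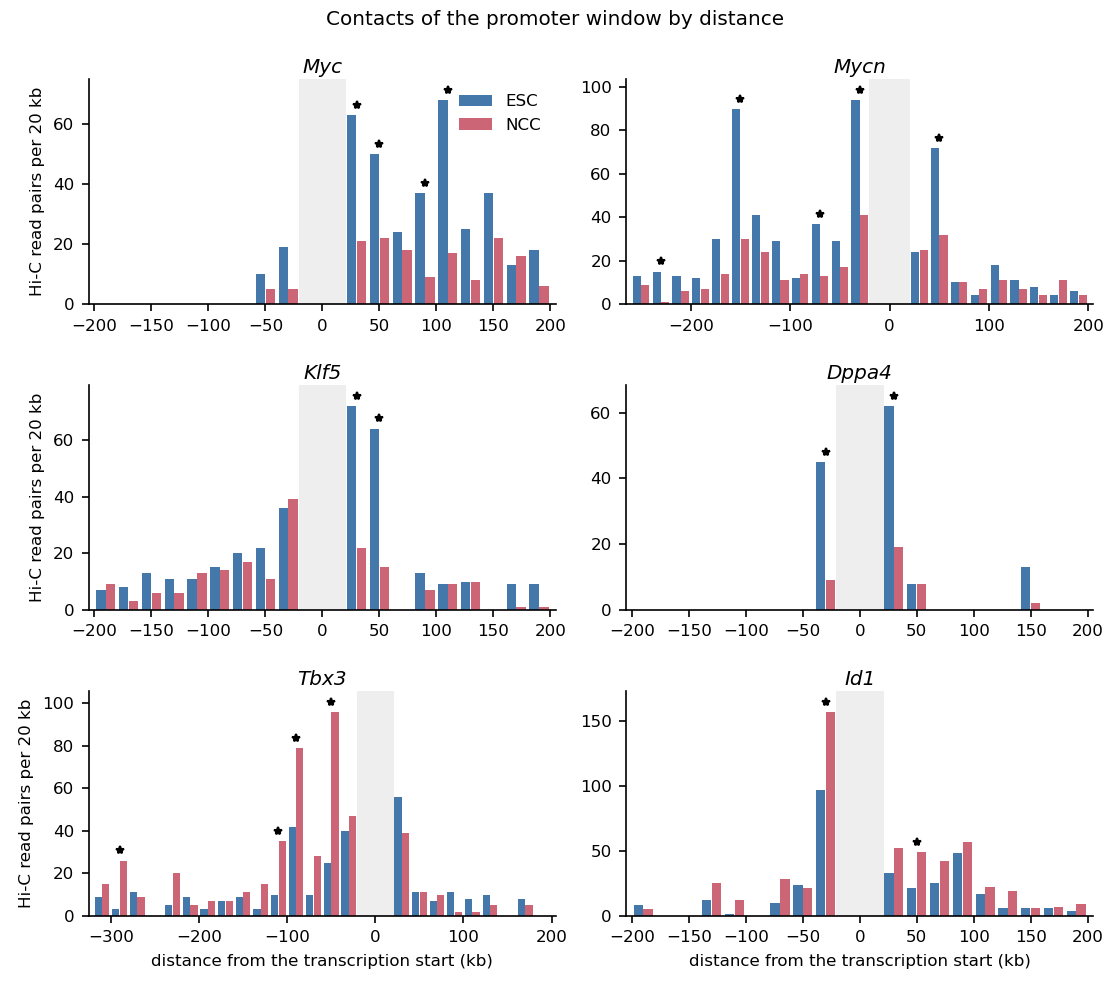
Hi-C read pairs per 20 kb bin from the promoter window of 6 members in ESC (blue) and NCC (red), unscaled, by distance from the start. The grey band is the 20 kb on each side that is left out, stars mark bins called by the binomial test, and bins with under 10 read pairs over both libraries are not drawn. Myc, Mycn, Klf5 and Dppa4 have starred bins that are lower in NCC, and Tbx3 and Id1 have starred bins that are higher.

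Tbx3, a T-box factor of the naive state that later patterns the limb and heart, gained contacts upstream. At -60 to -40 kb it had 25 read pairs in ESC and 96 in NCC (log2 ratio 1.89, interval 1.26 to 2.61), with 9750 and 18425 bp covered. At -100 to -80 kb it had 42 and 79 (0.87) at like covered length, 19426 and 18835 bp, at -120 to -100 kb 10 and 35 (1.72), and at -300 to -280 kb 3 and 26 (2.89). In the other direction, the bins at 740 to 780 kb fell from 40 to 4 pairs, and the farther one holds the start of Lhx5, a homeobox gene of the forebrain. Tbx3 was therefore the only member with 2 or more called bins in each direction.

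Other gains were near the gene. Id1 had 97 and 157 read pairs at -40 to -20 kb (log2 ratio 0.66) and 21 and 49 at 40 to 60 kb (1.17). Esrrb had 11 and 38 at -60 to -40 kb (1.71) and 37 and 75 at 20 to 40 kb (0.98). Dnmt3l, the cofactor of the de novo methyltransferases, had 15 and 64 at 40 to 60 kb (2.02) and 0 and 13 at -100 to -80 kb. Dnmt3b had 1 bin in each direction, with 77 and 26 pairs at -60 to -40 kb and 13 and 42 at 20 to 40 kb. Dppa5a, Tdgf1 and Sall4 had 1 higher bin each, at -80 to -60 kb with 5 and 24 pairs, at -80 to -60 kb with 34 and 67, and at -180 to -160 kb with 0 and 11. In each of these higher bins the covered length was larger in NCC, and its part was not tested.

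The lowest members had lower bins on both sides of the start. Their promoter windows, from which the pairs are counted, were less covered in NCC, as given above, and the part of this was not tested. Fbxo15 had 6 lower bins between -100 and 80 kb. Its 4 bins from -100 to -20 kb held 156 read pairs in ESC and 30 in NCC, with 59287 and 33049 bp covered. Rif1 had 50 and 6 pairs at -40 to -20 kb, where Tnfaip6 starts (log2 ratio -2.99, interval -4.61 to -1.87), and 16 and 0 at 20 to 40 kb. Dppa4 had 45 and 9 pairs at -40 to -20 kb (-2.29) and 62 and 19 at 20 to 40 kb (-1.71), the latter at 11000 and 10850 bp covered, and 10 and 0 at 320 to 340 kb. The Dppa4 bin at 20 to 40 kb is the bin of its neighbour Dppa2, which in turn had 38 and 7 pairs in the bin of Dppa4.

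Among the other genes, Lefty1 had 102 read pairs in ESC and 16 in NCC at 40 to 60 kb (log2 ratio -2.67, interval -3.57 to -1.94), where covered length fell from 15893 to 4668 bp. Tet2 had 21 and 0 pairs at 60 to 80 kb, a bin with no anchor in NCC. Tet1 had 76 and 32 pairs at 20 to 40 kb, where Dna2 starts, and 20 and 2 at 60 to 80 kb, where Rufy2 starts. Trim28, the corepressor of zinc finger proteins at retroviral repeats, had 4 lower bins from -80 to 40 kb, of which the nearest held 124 and 74 and 126 and 83 pairs at like covered length. At the canonical start of Trim28, 25038 bp away, Hi-C strength was 1135 and 1211 ends (0.06) and distal contacts were 220 and 231 (0.04), against -0.51 and -0.67 at the start used, so the direction turned there and the calls were lost. Of the remaining genes with a lower bin, Dppa3, Lefty2 and Sall1 had 2 each, at ESC and NCC counts from 39 and 7 for Dppa3 to 111 and 65 for Lefty2, and Dppa5a, Klf2, Lifr, Lin28a, Nodal, Prdm14, Sall4, Stat3 and Zfp281 had 1 each.

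Some members are neighbours and share reads. The starts of Dppa4 and Dppa2 lie 20.2 kb apart on chromosome 16, and their windows were joined by 117 Hi-C read pairs in ESC and 18 in NCC (log2 ratio -2.70, interval -3.54 to -2.01), with 1 anchor common to both windows in ESC and 0 in NCC. Gdf3, a Nodal-related ligand, and Dppa3, a maternal factor that protects methylation, lie 16.3 kb apart on chromosome 6 and had 116 and 110 pairs (-0.11, interval -0.50 to 0.28) with 1 common anchor in both. Lefty2 and Lefty1 lie 41.9 kb apart on chromosome 1 and had 205 and 186 pairs (-0.17, interval -0.47 to 0.12) with no common anchor. Of these, only the ratio of Dppa4 and Dppa2 lay beyond counting error. Pairs of an anchor common to both windows, also those inside it, enter the count. The 117 and 18 pairs were therefore not counted alike, and the part of the common anchor in the ratio was not tested. In FGFR1 HiChIP the windows of Dppa4 and Dppa2 had 10 and 18 pairs. There they had 0 common anchors in ESC and 1 in NCC, the reverse of Hi-C, so the directions of the 2 assays cannot be compared. Lefty2 and Lefty1, with no common anchor, had 31 and 9 pairs in FGFR1 HiChIP and 11 and 2 in CTCF HiChIP. Zfp281 and Nr5a2, 336 kb apart, had 6 and 1 Hi-C pairs, and Id1 and Dnmt3b, 913 kb apart, 6 and 2, numbers too small for a direction.

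Contacts between members on different chromosomes were too few to tell from the number expected. Windows of members were joined by 3 inter-chromosomal Hi-C read pairs in ESC, where 2.97 were expected from the inter-chromosomal ends of the windows (ratio 1.01, exact Poisson interval 0.21 to 2.96), and by 3 in NCC, where 2.09 were expected (1.43, interval 0.30 to 4.19). Windows of all protein-coding genes had ratios of 1.21 and 1.18. At this depth a difference between ESC and NCC was not detectable.

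FGFR1 HiChIP window strength of the members moved in both directions. FGFR1 is a receptor of FGF signals that is also found in the nucleus, where the study follows it as nFGFR1. Of the 38 members with at least 20 read pairs over both libraries, 22 were below 0 and 16 above. Of all genes tested, 56.0% were below 0. The median of the members was -0.28 against -0.14 for all genes and -0.27 for like genes. By the 1.5-fold call, 14 were lower and 8 higher, next to 30.5% and 22.9% of the 19672 genes tested, so the shares of the members (14 and 8 of 38) were near those of all genes. The members lay at the 49.8 percentile of their like genes at the median.

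Dnmt3l was the extreme. Its window had 134 FGFR1 ends in 6041 bp of anchors in ESC and no anchor in NCC. Such a window is listed at 0 because no anchor was called there, which sets no limit on the reads, so no fold is given. Rif1 had 137 ends in ESC and 29 in NCC (log2 ratio -2.49, interval -3.11 to -1.86), Klf5 165 and 36 (-2.45, interval -2.98 to -1.91) and Tdgf1 326 and 113 (-1.79, interval -2.15 to -1.43). Covered length fell with them, from 15721 to 3864 bp at Rif1, from 12085 to 5204 bp at Klf5 and from 11225 to 4851 bp at Tdgf1. Trim28 had 15 ends in ESC and 0 in NCC and did not reach the minimum. All 5 Nodal pathway genes were below 0 (56.0% of all genes were), with a median of -1.09. Past 1.5-fold were 3 of them (30.5% of all genes were): Tdgf1, Nodal with 340 and 183 ends, and Lefty2 with 362 and 204. Among their like genes, Tdgf1 lay at the 5.0, Nodal at the 15.4 and Lefty2 at the 17.0 percentile. Covered length fell from 12965 to 9038 bp at Nodal and from 15861 to 10298 bp at Lefty2.

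The binomial test called 15 lower and 7 higher, next to 29.8% and 21.2% of all genes. The highest were Sall4, a zinc finger factor of the network, with 43 and 165 ends (log2 ratio 1.66, interval 1.15 to 2.17), Prdm14 with 24 and 83 (interval 0.79 to 2.22), Zfp42 with 26 and 74 (1.22, interval 0.50 to 1.95) and Dnmt3b with 31 and 67 (0.83). Dnmt3b was not called by the binomial test. These 4 windows were thin in ESC, and their covered length rose, for example from 2021 to 6918 bp at Sall4. With 25 kb on each side of the start, all 4 turned, to -0.21, -0.16, -0.29 and -0.03, and per covered kb Sall4 was at -0.11, Prdm14 at -0.77 and Dnmt3b at -0.83. The direction of these 4 genes therefore depends on the window. Id3, with 60 and 126 ends over 8071 and 8655 bp (0.80, interval 0.32 to 1.28), was higher at like covered length.

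CTCF HiChIP showed the same spread at lower depth. Of 38 members tested, 21 were below 0 and 17 above, where 52.1% of all genes were below 0. The median of the members was -0.15 against -0.05 for all genes. By the 1.5-fold call 14 were lower and 8 higher, next to 31.2% and 26.4% of the 17127 genes tested, again near the shares of all genes. The binomial test called 8 lower and 5 higher, next to 18.5% and 17.3%. Of the 9 ESC and germline marker genes, 7 were lower past 1.5-fold (31.2% of all genes were), with a median of -1.03: Dppa3, Lin28a, Tcl1, Dppa4, Fbxo15, Dppa2 and Dppa5a. The binomial test called 3 of these, Dppa3, Lin28a and Dppa5a. Covered length was lower in NCC at all 7, for example 7169 and 1860 bp at Dppa3, and its part was not tested. The windows of Dppa4 and Dppa2 had 1 common CTCF anchor in both cell types, so they are not separate cases. At its canonical start Fbxo15 had 64 and 38 ends (-0.54), short of the call.

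Zfp281 changed most among members with anchors in both cell types, with 134 CTCF ends in ESC and 9 in NCC (log2 ratio -3.62, interval -4.61 to -2.63) over 13041 and 3915 bp. Dppa3 had 90 and 18 ends (-2.08, interval -2.87 to -1.30), but was at 0.0038 with anchors that overlap between cell types. Dnmt3b had 33 and 7 ends (-1.95, interval -3.16 to -0.75). Lifr had 20 ends in ESC and no anchor in NCC, and 75 and 46 ends (-0.49, not called) at its canonical start. Myc was the reverse, with no CTCF anchor in ESC and 49 ends in NCC. Tfcp2l1, a naive factor that Stat3 induces, had 18 and 55 ends (1.79, interval 0.98 to 2.60), Zfp42 9 and 19 (1.24, interval -0.10 to 2.58) and Utf1 27 and 55 (1.22, interval 0.50 to 1.94). With 5 kb on each side, Tfcp2l1 was at -0.15, and with 25 kb Utf1 was at -0.18.

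Distal contacts in the HiChIP tables were few. In FGFR1 HiChIP, 37 members were tested with a median of -0.47 against -0.21 for all genes, and 17 were lower and 5 higher past 1.5-fold, next to 31.7% and 18.2%. The binomial test called 12 lower and 0 higher, next to 19.4% and 9.13%, and 2 were higher at an unadjusted p under 0.05. In CTCF HiChIP, 30 members were tested with a median of 0.00, and 9 were lower and 6 higher past 1.5-fold, next to 25.7% and 25.1%. The binomial test called 3 lower and 2 higher, next to 6.25% and 6.04%.

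**Figure D5:**
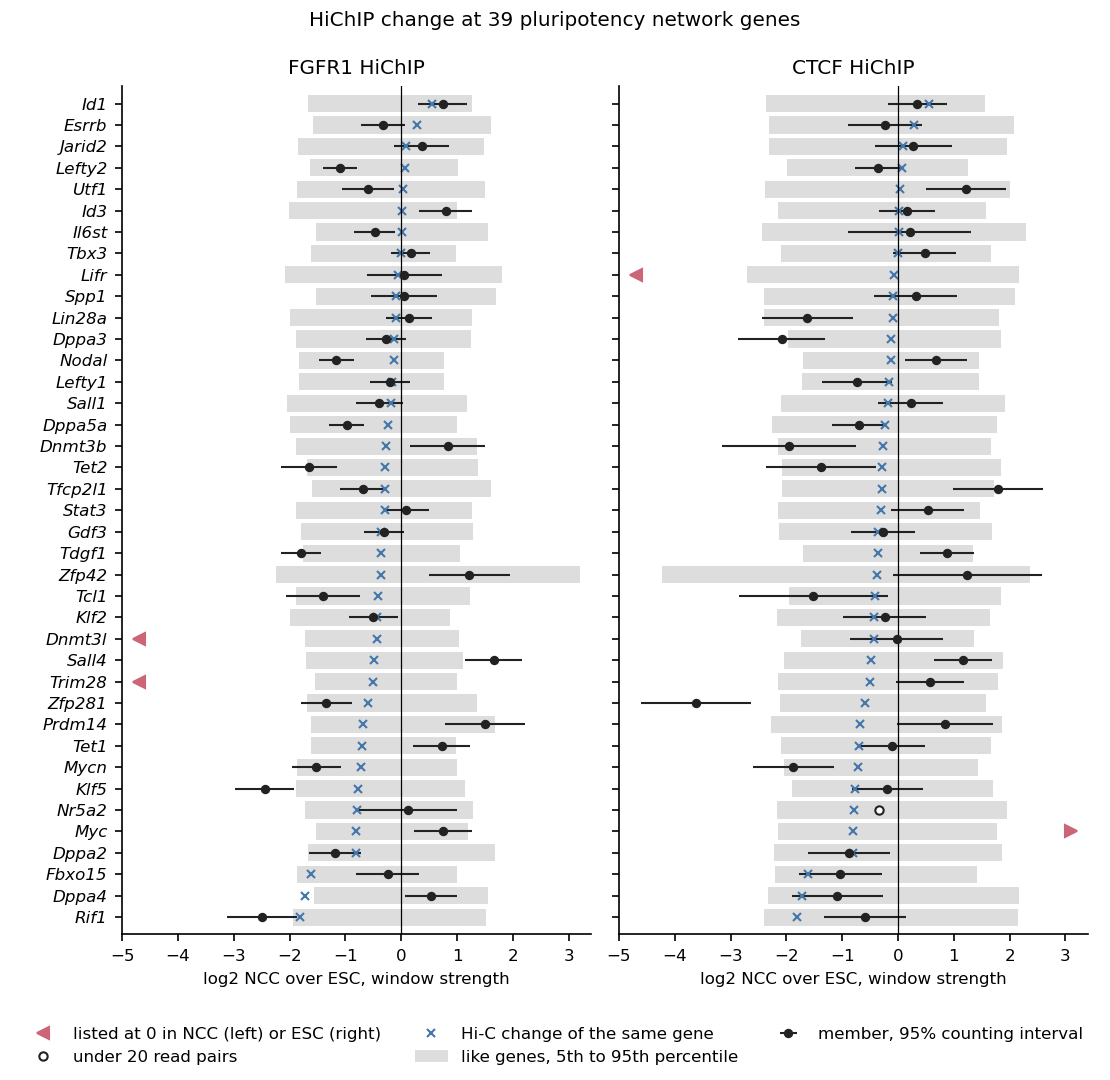
Log2 ratio of NCC over ESC of FGFR1 (left) and CTCF (right) HiChIP window strength for the 39 members, in the order of the Hi-C change, with 95% counting intervals, the Hi-C change of the same gene as a cross and the 5th to 95th percentile of like genes in grey (cut at the edge for Zfp42). Triangles mark windows listed at 0 in NCC (left edge) or ESC (right edge), and the open circle has under 20 read pairs. Intervals are wider than in Hi-C, and points fall on both sides of the crosses.

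The 3 assays were set side by side, since they come from separate libraries. Of 37 members tested in all 3, Dppa2, Mycn, Rif1 and Zfp281 were lower past 1.5-fold in each, which is 10.8% against 1.36% of 16951 genes. The CTCF interval of Rif1, -1.33 to 0.14, includes 0, and the binomial test called neither Rif1 nor Dppa2 in CTCF HiChIP. Covered length was lower in NCC at each of these genes in each assay, and its part was not tested. The difference was large at Zfp281 in CTCF HiChIP (13041 and 3915 bp) and small at Dppa2 in FGFR1 HiChIP (8389 and 8244 bp). None was higher past 1.5-fold in all 3, next to 0.926% of genes. Below 0 in all 3 were 14 members (37.8%, against 17.7% of genes), and above 0 in all 3 were Id1, Id3 and Jarid2 (8.11%, against 10.6%). Myc, Prdm14, Sall4, Spp1, Stat3, Tbx3 and Zfp42 lay below 0 in Hi-C and above 0 in both HiChIP tables (18.9%, against 10.2%).

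The HiChIP change was also taken relative to the Hi-C change of the same window. In FGFR1 HiChIP, 10 of 37 members were higher and 11 lower past 1.5-fold with an interval that leaves out 0, next to 21.8% and 30.1% of genes. The highest difference was at Dppa4 (2.27, interval 1.75 to 2.79) and the lowest at Klf5 (-1.68, interval -2.24 to -1.13). At Dppa4, Hi-C strength was lower and FGFR1 strength had 73 ends in ESC and 128 in NCC. From ESC to NCC, covered length there fell from 19053 to 7281 bp in Hi-C and rose from 6662 to 12745 bp in FGFR1 HiChIP. At Klf5 it fell in both, from 26178 to 17788 bp in Hi-C and from 12085 to 5204 bp in FGFR1 HiChIP. The part of covered length in these differences was not tested. In CTCF HiChIP, 10 of 36 were higher and 6 lower, next to 23.1% and 23.6%. Tfcp2l1 was highest (2.08) and Zfp281 lowest (-3.03, interval -4.03 to -2.03). Covered length in CTCF HiChIP rose from 5823 to 8846 bp at Tfcp2l1 and fell from 13041 to 3915 bp at Zfp281. Its part was not tested here either.

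Within ESC, the FGFR1 share of the member windows relative to the Hi-C share was near that of all genes, with a median of -0.30 against -0.33 for all genes and -0.56 for like genes. By the 1.5-fold call 4 members were higher and 18 lower in FGFR1 HiChIP over Hi-C, next to 16% and 39.6% of all genes, and the binomial test called 8 higher and 18 lower, next to 19.5% and 46.3%. Rif1 had 27.8 Hi-C ends per 1000000 read pairs and 51.5 FGFR1 ends (log2 ratio 0.89, interval 0.58 to 1.20), Dppa2 30.1 and 51.5 (0.78), Il6st 37.8 and 62.7 (0.73) and Esrrb 34.9 and 53.3 (0.62). At the other end were Trim28 (-3.50), Dnmt3b (-2.44), Sall4 (-2.22) and Nr5a2 (-2.15), with 15 to 43 FGFR1 ends each. The canonical starts changed 2 of these, Trim28 to 0.07 and Esrrb to -0.36. In NCC 2 members were higher and 20 lower, next to 17.9% and 44% of genes (4 and 22 by the binomial test, next to 21.4% and 51.9%), and Sall4 was then at -0.07.

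For CTCF in ESC, 5 members were higher and 15 lower than in Hi-C, next to 19.1% and 38.3% of all genes, and the binomial test called 5 higher and 18 lower, next to 15.6% and 36.2%. Zfp281 had 64.6 Hi-C and 110.0 CTCF ends per 1000000 read pairs (log2 ratio 0.77, interval 0.46 to 1.09), Dppa2 30.1 and 50.9 (0.77), Lefty2 96.6 and 152.7 (0.66) and Rif1 27.8 and 41.9 (0.60). Lowest were Myc, listed at 0, Nr5a2 (-2.06), Dnmt3l (-1.85) and Tcl1 (-1.59). In NCC 8 were higher and 13 lower, next to 20.1% and 40.7% (6 and 14 by the binomial test, next to 17.2% and 35.9%).

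The windows were searched on both strands for the core CTCF consensus, a match of 12 letters. It was found in 5 of 39 member windows (12.8%) and in 14.7% of all 21728. Zfp281, Dppa2 and Lefty2, the members highest in CTCF HiChIP over Hi-C, had no match, which says only that these letters are not in their windows. The 5 matches, chosen after they were seen, are shown with 9 bases on each side, in mm10, read along the strand of the motif, with the consensus in capitals.
Myc, chr15:61983422-61983451, plus strand, intergenic, at -1960 bp from the start: tctctgtggCCAGTAGAGGGCacacttact
Utf1, chr7:139949970-139949999, plus strand, intergenic, 6190 bp downstream of the start: ttaagagttCCAGCAGGGGGCttttgacca
Lefty1, chr1:180937779-180937808, plus strand, in a coding exon of Lefty1: agtccctgaCCAGCAGGTGGCcatttctgg
Dnmt3l, chr10:78043541-78043570, minus strand, inside Dnmt3l and in a UTR exon of its neighbour Aire: gcgcgtgggCCAGCAGGGGGCgccgaggcg
Trim28, chr7:13006045-13006074, minus strand, inside Trim28 and in a UTR exon of its neighbour Zbtb45: aggttcactCCACCAGATGGCttctgctct
The Utf1 match lay in an anchor in all 6 tables, and its CTCF anchor had 22 ends in ESC and 46 in NCC. The Dnmt3l match lay in the FGFR1 anchor of 6041 bp that held all 134 ends of the window in ESC and had no counterpart in NCC. The Myc match lay in a Hi-C anchor of 630 ends in ESC and in no anchor of the other 5 tables, the CTCF table of NCC included, so the 49 CTCF ends of Myc in NCC were in other fragments. A match to these letters is a description of the window and not a CTCF site.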

How the data were processed

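Hi-C, FGFR1 HiChIP and CTCF HiChIP of ESC and NCC were available as 6 deposited tables, in which the score is the count of read pairs joining 2 anchors, made by the authors with HiC-Pro (mm10, duplicates removed) and hichipper (default settings, each library on its own) and merged over 2 replicates. The methods state that valid pairs were normalized between cell types, and the deposited counts are whole numbers with unequal totals. Chromosomes 1 to 19 and X were kept, at least 99.1% of each table. All anchors start and end at GATC in the reference, so mm10 coordinates were used as given.

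Starts were the 5′ ends of genes in GENCODE vM21. Counts were scaled to table totals and log2 ratios had a pseudocount of 0.5. A call was a 1.5-fold change, and the exact two-sided binomial test with Benjamini-Hochberg adjustment was run over all genes with at least 20 read pairs (SciPy 1.17.1). Intervals are 95% and cover counting error only, since pairs are not independent molecules. The counting and test steps were tested on simulated data. The members and lists were chosen with earlier results of these data known. Values were given by this rule: the 4 highest and 4 lowest members of each comparison, each member with a called bin, and each pair of members within 1 Mb. The gene lists serve as description, with no set test. Alternatives were other windows, anchor rules, starts, scalings, minimums and folds. Alternatives on covered length were chosen after seeing the data.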

Additional observations from a re-analysis of the deposited data

How the results depend on the processing

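No paired analysis was possible because each deposited table merges both replicates, and leaving out a replicate could not be run for the same reason. Median changes and most counts kept their direction: of the counts and medians recomputed, 211 moved by less and 64 by more than 1.5 times for a count, the median half-width of the members' counting intervals for a median, or the Poisson interval for contacts between members, and of the values of single genes 392 kept their direction and their side of the threshold, 28 changed direction, 31 lost and 3 gained the call. Apart from fewer members or bins being tested, the causes were not tested. Shares of all genes are not set beside the counts below, which therefore show only how the number of members or bins called moved.

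For Hi-C window strength, 11 members were lower past the fold, 0 higher, 26 lower and 2 higher by the binomial test, and 5 under the 5th percentile of like genes. With 5 kb on each side, 2 were higher past the fold, 7 higher by the binomial test, 2 under the 5th percentile, and Lefty2 was at -0.11. With 25 kb, 6 were lower and 1 higher, Lefty2 was at -0.0050 and Jarid2 at -0.41. With anchor midpoints, 1 was higher by the binomial test and Lefty2 was at -0.11, and with canonical starts 1 was higher. With scores of at least 2, 1 was higher past the fold and Jarid2 was at -0.056. With the median of all genes at 0, 1 was higher. Without pairs inside 1 anchor, 8 were under the 5th percentile and Lefty2 was at -0.080. Calling changes of 25% gave 19 lower and 1 higher, and of 2-fold 3 lower.

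Of the settings chosen after seeing the data, ends per covered kb gave 4 lower, 14 under the 5th percentile, Lefty2 at -0.070, Jarid2 at -0.66 and Id1 at -0.10. Anchors that overlap between cell types put Jarid2 at -0.32, and without the members whose canonical start is distant 1 was higher by the binomial test. Over the 26 members with like covered length, 3 were lower past the fold, 21 below 0, 16 lower and 1 higher by the binomial test and 0 under the 5th percentile, of fewer members.

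For FGFR1 window strength, 14 were lower and 8 higher. The higher count was 5 with 5 kb (Dnmt3b at -6.24), 1 with 25 kb (Dnmt3b -0.032, Zfp42 -0.29, Prdm14 -0.16, Sall4 -0.21), 4 without pairs inside 1 anchor, 3 at 2-fold and 1 per covered kb (Dnmt3b -0.83, Prdm14 -0.77, Sall4 -0.11). Zfp42 was at -0.064 with anchors that overlap between cell types, and at like covered length 3 were lower and 2 higher. For CTCF window strength, 14 were lower and 8 higher. Tfcp2l1 was at -0.15 with 5 kb and with anchor midpoints, and with 25 kb 3 were higher and Utf1 was at -0.18. Scores of at least 2 gave 9 lower, 2-fold 5 higher, ends per covered kb 6 lower and 2 higher, overlapping anchors 9 lower with Dppa3 at 0.0038, and like covered length 1 lower and 0 higher.

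For Hi-C distal contacts, 11 were lower and 0 higher. The higher count was 4 with 5 kb, 2 with scores of at least 2, 1 at 20 to 200 kb and 2 at changes of 25%. The lower count was 7 with 25 kb, 7 at 200 kb to 1 Mb, 18 at changes of 25%, 3 at 2-fold and 4 at like covered length. Esrrb was at -0.029 with anchor midpoints and -0.057 at its canonical start, and Id1 at -0.044 at 200 kb to 1 Mb.

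For FGFR1 over Hi-C in ESC, 11 were lower with 25 kb, and 8, 9 and 9 were higher with anchor midpoints, scores of at least 2 and the median of all genes at 0, while canonical starts put Trim28 at 0.075 and Esrrb at -0.36. In NCC, 1, 1 and 5 were higher with 5 kb, anchor midpoints and scores of at least 2, and with the median at 0 11 were lower and 6 higher. For CTCF over Hi-C, 3, 8 and 8 were higher in ESC with 25 kb, scores of at least 2 and the median at 0, and 5, 3, 14 and 13 in NCC with 5 kb, 25 kb, scores of at least 2 and the median at 0. Bins of 10 kb gave 82 lower and 34 higher, and bins of 50 kb 7 higher. HiChIP depth limits single genes, since many windows hold under 100 ends.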
